A study of Mus musculus with 16 samples.

Results

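Endothelial cells hold to one another through adherens and tight junctions, and 10 genes of these junctions were described across 3 vascular beds. They were chosen by name, as adhesion proteins and scaffolds of endothelial junctions, with earlier results of these data known. All 10 were found among the 52636 genes of the deposited counts table, and all 10 were among the 19646 genes with enough counts to be tested. The libraries came from mouse endothelial cells of liver, lung and heart, taken at day 10 after tamoxifen, which was given to induce gene deletion. Controls were labelled Wild Type and the other animals Erg and Fli1 double knockout. There were 3 libraries of each genotype label for liver and for lung, and 2 of each for heart. The sources used here do not give the Cre driver, the deleted exons, the age of the animals or whether each library was a separate animal, so p-values measure the spread between these libraries, which may be technical. Before dissociation the animals had received an antibody against VE-cadherin, and live cells were sorted for CD31 and VE-cadherin without CD45. CD31 and VE-cadherin are the products of Pecam1 and Cdh5, so the sort used these 2 of the 10 members.

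At the adherens junction, VE-cadherin (Cdh5) binds its like on the next cell and is tied to actin by catenins, while nectins (Nectin2) bind across the gap and are tied to actin by afadin (Afdn). Tight junctions are sealed in endothelium chiefly by claudin-5 (Cldn5), with immunoglobulin-type receptors (Esam, Jam2, Jam3 and F11r) beside it and the scaffold ZO-1 (Tjp1) beneath. PECAM-1 (Pecam1) lies at the same cell borders. Erg and Fli1 are ETS transcription factors, which bind DNA around a GGAA core and are abundant in endothelial cells.

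Jam2 and Esam were lower in the knockout-labelled libraries of all 3 tissues, Jam2 by 5.79-fold in liver, 2.02-fold in lung and 4.83-fold in heart. Afdn was 4.79-fold lower in heart and did not pass the test in liver or lung. Jam3 fell in liver and heart, Cldn5 in liver and Tjp1 in heart, while Nectin2 rose in liver and heart. Leaving out certain single libraries ended the calls on Cldn5 and Nectin2 in liver, Jam2 in lung, and Esam, Jam3 and Tjp1 in heart. Cdh5, Pecam1 and F11r passed in no tissue. Levels are in CPM, counts divided by the library size after TMM scaling, a gene "rose" or "fell" in the knockout-labelled libraries relative to controls, and every adjusted p is from edgeR's quasi-likelihood test with Benjamini-Hochberg adjustment over the 19646 genes, at a threshold of 0.05.

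Promoter sequence is printed for Afdn, Nectin2 and Tjp1. Of the 5 members matched to a RefSeq promoter (GRCm38.p6), these 3 had the smallest adjusted p for a difference between tissues in the knockout change. The runs of Nectin2 and Tjp1 end at the base before the RefSeq start. That of Afdn ends slightly upstream of it, at the base before an annotated exon that begins at 13760539. Each run reads 5′ to 3′ on the gene's strand and leaves out annotated exons, and capitals mark GGAA on either strand.
Afdn (chr17:13760291-13760538, plus strand): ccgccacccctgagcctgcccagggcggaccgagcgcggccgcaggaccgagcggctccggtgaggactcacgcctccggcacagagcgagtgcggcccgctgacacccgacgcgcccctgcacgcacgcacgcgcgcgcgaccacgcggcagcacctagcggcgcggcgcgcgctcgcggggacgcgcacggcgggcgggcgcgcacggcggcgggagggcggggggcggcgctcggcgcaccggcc
Nectin2 (chr7:19749574-19749823, minus strand): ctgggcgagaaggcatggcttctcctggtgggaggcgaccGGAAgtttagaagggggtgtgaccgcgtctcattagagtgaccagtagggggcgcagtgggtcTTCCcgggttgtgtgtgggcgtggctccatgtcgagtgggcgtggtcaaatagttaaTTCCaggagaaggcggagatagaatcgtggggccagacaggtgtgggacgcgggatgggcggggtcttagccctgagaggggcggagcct
Tjp1 (chr7:65371245-65371494, minus strand): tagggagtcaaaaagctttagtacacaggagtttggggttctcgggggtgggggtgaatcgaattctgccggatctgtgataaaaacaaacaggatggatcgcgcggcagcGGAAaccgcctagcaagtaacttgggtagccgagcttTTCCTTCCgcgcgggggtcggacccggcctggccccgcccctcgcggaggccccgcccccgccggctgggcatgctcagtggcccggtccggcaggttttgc
The window of Nectin2 held 3 matches to GGAA, and 1 of them lay within the longer CCGGAAGT. That of Tjp1 held 3 as well, and that of Afdn none. The windows of F11r and Cldn5, not printed, held 4 and none. Of the 32817 promoter windows of 300 bases searched in the same way on both strands, 96% held GGAA and 3.89% held CCGGAAGT. The windows of Tjp1 and Nectin2 lie inside the annotated genes, whose outermost 5′ ends are at 65527781 and 19750483 on chromosome 7. Start sites further upstream in these genes are therefore not covered. These counts describe the letters of the windows only.

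Total counts per library ran from 30226340 to 41449054. Whole-gene counts of Erg fell in liver (log2 −1.31, adjusted p = 1.54e-05) and lung (log2 −0.52, adjusted p = 0.0231) and had log2 −0.47 in heart (adjusted p = 0.0538). Those of Fli1 fell in no tissue. They rose in lung (log2 0.69, adjusted p = 0.0131) and did not pass in liver (log2 0.38, adjusted p = 0.1004) or heart (log2 0.02, adjusted p = 0.9785). Reads outside the deleted part count towards both genes. The libraries are therefore called knockout-labelled. All 14 endothelial markers that are not members had counts in every group, and their summed level was 16300 to 27260 CPM in controls and 8487 to 19830 CPM in knockout-labelled libraries. Of these 14, 8 fell in liver, 7 fell and 1 (Emcn) rose in lung, and 7 fell in heart. In bulk libraries, fewer cells of a type and less RNA per cell cannot be told apart. By Xist, 1 library in each liver and lung group and 1 knockout-labelled heart library (library 2) came from a male, and both heart controls from females. Without that heart library, 5 of the 6 heart calls on members held, and that for Tjp1 did not (log2 −0.63, adjusted p = 0.066).

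**Figure D1:**
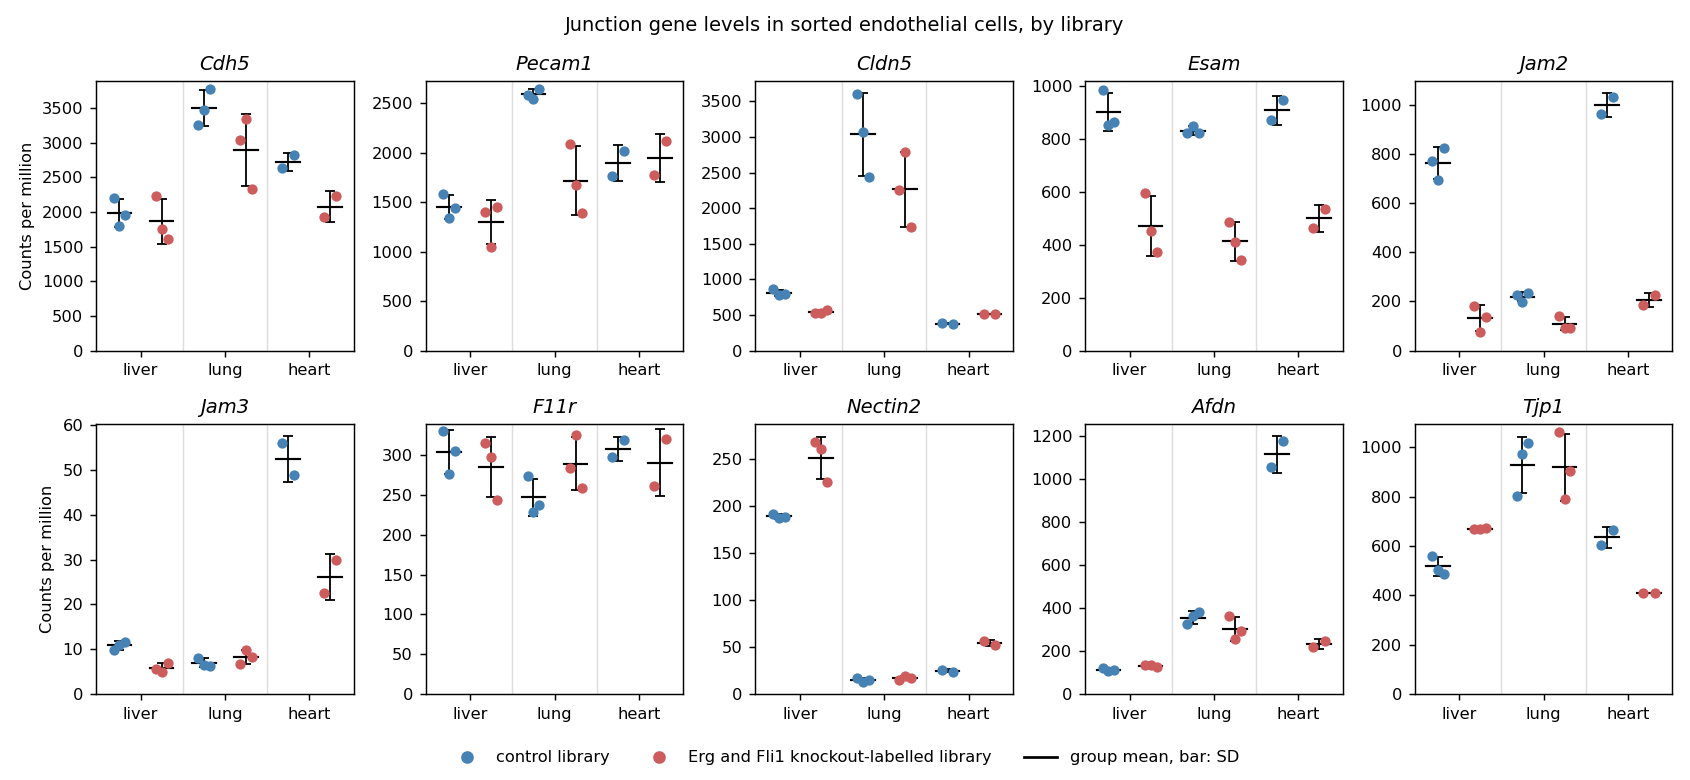
Level of each junction gene (CPM, linear axis from 0, a separate scale for each gene) in each of the 16 libraries, by tissue. Points are libraries, long bars are group means and whiskers are 1 SD. Jam2 and Esam lie lower in the knockout-labelled libraries of every tissue, and Afdn drops in heart from 1115 to 233 CPM on average.

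The cadherin and PECAM-1 genes, whose products the sort used, did not pass the test in any tissue. Cdh5 (chromosome 8, 104101625 to 104144511, plus strand, GRCm38) had 2195, 1797 and 1949 CPM in the liver controls against 2229, 1757 and 1603 CPM in the knockout-labelled liver libraries. Its lung controls had 3256, 3466 and 3775 CPM against 3036, 3336 and 2324 CPM, and its heart controls 2629 and 2817 CPM against 1920 and 2233 CPM. The groups overlapped in liver and lung, and in heart both knockout-labelled libraries lay below both controls. The log2 change of Cdh5 was −0.09 in liver (95% interval −0.48 to 0.30, adjusted p = 0.786), −0.27 in lung (−0.66 to 0.12, adjusted p = 0.413) and −0.39 in heart (−0.87 to 0.09, adjusted p = 0.243).

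Pecam1 (chromosome 11, 106654217 to 106750628, minus strand) encodes a homophilic receptor that leukocytes also meet as they cross the endothelium. It had 1583, 1337 and 1442 CPM in liver controls against 1401, 1050 and 1451 CPM in the knockout-labelled group. Lung held 2588, 2542 and 2645 CPM in controls against 2089, 1678 and 1391 CPM in the others, and heart 1765 and 2021 against 1772 and 2117 CPM. All 3 knockout-labelled lung libraries lay below all 3 controls, whereas the liver and heart groups overlapped. The lung change of Pecam1 was log2 −0.59 (SE 0.179, adjusted p = 0.0576), just over the threshold, and it passed with DESeq2 (adjusted p = 0.00737). In liver its log2 change was −0.16 (adjusted p = 0.578), and in heart 0.04 (adjusted p = 0.94).

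Claudin-5 is the main claudin of endothelial tight junctions, and its gene had different directions by tissue. Cldn5 (chromosome 16, 18776847 to 18778262, plus strand) had 865, 782 and 792 CPM in the liver controls against 523, 529.5 and 577.5 CPM in the knockout-labelled group, so that the groups did not overlap. It fell in liver by 0.58 on the log2 scale (SE 0.179, adjusted p = 0.0353). That call ended without any 1 of the 6 liver libraries, lung control 2 or either heart control (adjusted p up to 0.109), and with library totals as the only scaling (log2 −0.47, adjusted p = 0.0802). Lung held 3604, 3071 and 2438 CPM against 2262, 2791 and 1740 CPM, groups that overlapped (log2 −0.42, adjusted p = 0.175). In heart, 386.5 and 373 CPM in the controls stood below the other group's 514 and 519 CPM (log2 0.44, 95% interval −0.03 to 0.91, adjusted p = 0.179).

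Esam, Jam2, Jam3 and F11r encode related immunoglobulin-type receptors that bind across cell borders and carry tails that dock scaffolds. Esam, the endothelial cell-selective adhesion molecule, fell in all 3 tissues by like amounts. Esam (chromosome 9, 37528078 to 37538319, plus strand) had 986, 853 and 865 CPM in liver controls against 595, 451 and 371.5 CPM in the knockout-labelled group. Its lung controls had 821, 849 and 822 CPM against 487, 410.2 and 342 CPM, and its heart controls 869 and 945 CPM against 463 and 536.5 CPM. Every knockout-labelled library lay below every control of its tissue. The log2 change of Esam was −0.93 in liver (SE 0.172, adjusted p = 0.00174), −1.01 in lung (SE 0.173, adjusted p = 0.00266) and −0.86 in heart (SE 0.211, adjusted p = 0.0121). The heart call ended without heart control 2 or knockout-labelled 1 (adjusted p up to 0.0988). The fall of Esam in lung differed from that in liver by −0.08 on the log2 scale (95% interval −0.60 to 0.44), and that in heart by 0.07 from liver (−0.51 to 0.65) and by 0.15 from lung (−0.43 to 0.73).

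Jam2 encodes JAM-B, a junctional adhesion molecule that pairs with JAM-C. Jam2 (chromosome 16, 84774123 to 84825928, plus strand) had 772, 694 and 824 CPM in liver controls against 182, 77.7 and 136 CPM in the knockout-labelled liver libraries. Lung held 226, 198 and 235 CPM in controls against 139, 92.7 and 94.2 CPM in knockout-labelled libraries. Heart controls had 963 and 1033 CPM, against 187 and 226 CPM. No knockout-labelled library reached the controls of its tissue, and the lung controls were already low. The log2 change was −2.53 in liver (SE 0.256, adjusted p = 1.57e-05), −1.01 in lung (SE 0.245, adjusted p = 0.0203) and −2.27 in heart (SE 0.311, adjusted p = 3.3e-04). The lung call for Jam2 ended when lung control 1 or 3, or lung knockout-labelled 2 or 3, was left out (adjusted p up to 0.0798). The change in lung was smaller than that in liver by 1.52 on the log2 scale (SE 0.345, adjusted p = 0.018), while the difference between heart and lung was −1.26 (adjusted p = 0.0696), which passed with DESeq2 (adjusted p = 0.0204) and without the filter on low counts (adjusted p = 0.0385), and that between heart and liver 0.26 (adjusted p = 0.738).

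Jam3, which encodes JAM-C, was low in liver and lung and higher in heart. Jam3 (chromosome 9, 27097384 to 27155421, minus strand) had 9.83, 10.96 and 11.7 CPM in liver controls against 5.48, 4.84 and 6.96 CPM in the knockout-labelled group, and 56.0 and 48.8 CPM in heart controls against 22.6 and 29.8 CPM. In lung it had 8.06, 6.56 and 6.24 CPM in controls against 6.74, 9.69 and 8.32 CPM in the others. The liver and heart groups did not overlap, and the lung groups did. Jam3 fell in liver (log2 −0.91, SE 0.183, adjusted p = 0.00308) and heart (log2 −1.001, SE 0.219, adjusted p = 0.0064), and had log2 0.24 in lung (adjusted p = 0.47). The heart call ended without heart control 1 or knockout-labelled 1 (adjusted p up to 0.0762). Its lung change differed from those in liver (1.15, adjusted p = 0.0167) and heart (−1.25, heart minus lung, adjusted p = 0.0204). Both differences were lost without certain single libraries: the first without liver control 3 or lung control 2 or 3 (adjusted p up to 0.0559), the second without lung control 3, either heart control or heart knockout-labelled 1 (adjusted p up to 0.102). An antisense gene, Gm48796, shares 36.2% of the Jam3 exon bases and had 14.02 CPM in heart controls and 7.33 CPM in knockout-labelled heart libraries. The sources used here do not say whether counting used strand, so reads of the pair cannot be told apart.

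F11r (chromosome 1, 171437535 to 171464603, plus strand) encodes JAM-A, the family member found on epithelium, platelets and endothelium alike. It had 331, 276 and 305 CPM in liver controls against 316, 298 and 244 CPM in the knockout-labelled group. Lung had 274, 229 and 238 CPM against 284, 326 and 259 CPM, and heart 298 and 319 CPM against 261 and 321 CPM. The groups of F11r overlapped in every tissue. Its log2 changes of −0.09, 0.23 and −0.08 had 95% intervals of −0.38 to 0.20, −0.06 to 0.52 and −0.44 to 0.27 in liver, lung and heart.

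Nectin2, whose product binds other nectins across the adherens junction and is anchored by afadin, was the 1 member that rose. Nectin2 (chromosome 7, 19716644 to 19750483, minus strand) had 191, 187 and 189 CPM in liver controls against 268, 261 and 226 CPM in the knockout-labelled group. Heart controls had 25.7 and 23.4 CPM, against 56.0 and 51.7 CPM. Lung had 17.4, 12.4 and 14.7 CPM against 14.5, 18.7 and 16.9 CPM. Libraries of the groups did not overlap in liver or heart and did in lung. Nectin2 rose in heart by a log2 change of 1.13 (SE 0.154, adjusted p = 3.26e-04) and in liver by 0.41 (SE 0.123, adjusted p = 0.0308), with 0.17 in lung (adjusted p = 0.476). The liver call ended without liver control 1, 2 or 3 or knockout-labelled 1 or 2 (adjusted p up to 0.093) and with no filter on low counts (adjusted p = 0.0785). The heart change exceeded that in lung by 0.97 (adjusted p = 0.0125) and that in liver by 0.72 (adjusted p = 0.0368). A block on the number in the library descriptions, which the labels do not explain, ended the heart-liver call (adjusted p = 0.0586). The heart-lung difference was lost without heart control 2 or knockout-labelled 1 (adjusted p up to 0.0602). The heart-liver difference was lost without liver control 1, 2 or 3, liver knockout-labelled 2 or 3, lung control 3 or any 1 heart library (adjusted p up to 0.133), and with library totals only (adjusted p = 0.0532).

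Afadin is the actin-linked scaffold that nectins dock on, and its gene had the largest control level in heart and the smallest in liver. Afdn (chromosome 17, 13760539 to 13906150, plus strand) had 1055 and 1176 CPM in heart controls against 217.5 and 248 CPM in the knockout-labelled heart libraries. Liver had 123, 108 and 109.5 CPM against 135, 133 and 127 CPM, and lung 324, 362 and 381 CPM against 365, 255 and 291 CPM. The heart groups stood far apart, the liver groups did not overlap in the opposite direction, and the lung groups overlapped. Afdn fell in heart by 2.26 on the log2 scale (SE 0.169, adjusted p = 5.9e-06), with 0.21 in liver (adjusted p = 0.291) and −0.23 in lung (adjusted p = 0.332). The change in heart differed from that in liver by −2.47 (SE 0.211, adjusted p = 2.86e-05) and from that in lung by −2.03 (SE 0.21, adjusted p = 2.54e-04), and the heart call and both differences held in every alternative run. Tcte2, on the other strand, shares 2.16% of the Afdn exon bases and had 3.9 CPM in heart controls. Gm20512, likewise on the other strand, shares 3.86% of the Nectin2 exon bases and had at most 15 counts in any library.

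ZO-1 links claudins and junctional adhesion molecules to actin, and its gene had opposite directions in heart and liver. Tjp1 (chromosome 7, 65296165 to 65527781, minus strand) had 603 and 666 CPM in heart controls against 411 and 408 CPM in the knockout-labelled group. Liver had 560.4, 503 and 487 CPM in controls against 669, 669 and 671 CPM in the others, and lung 802, 971 and 1017 CPM against 1061, 790 and 905 CPM. Both the heart and the liver groups were apart, in opposite directions, and the lung groups overlapped. Tjp1 fell in heart by 0.63 on the log2 scale (SE 0.165, adjusted p = 0.0168), and in liver its change was 0.37 (SE 0.134, adjusted p = 0.0683). The heart call ended without heart control 2 or knockout-labelled 1 or 2 (adjusted p up to 0.107). With DESeq2 the liver change passed too (adjusted p = 0.029), as it did with library totals only (adjusted p = 0.0135). The heart change differed from that in liver by −1.01 (SE 0.213, adjusted p = 0.0109). Its difference from that in lung was −0.61 (adjusted p = 0.107), which passed with DESeq2 (adjusted p = 0.0302).

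**Figure D2:**
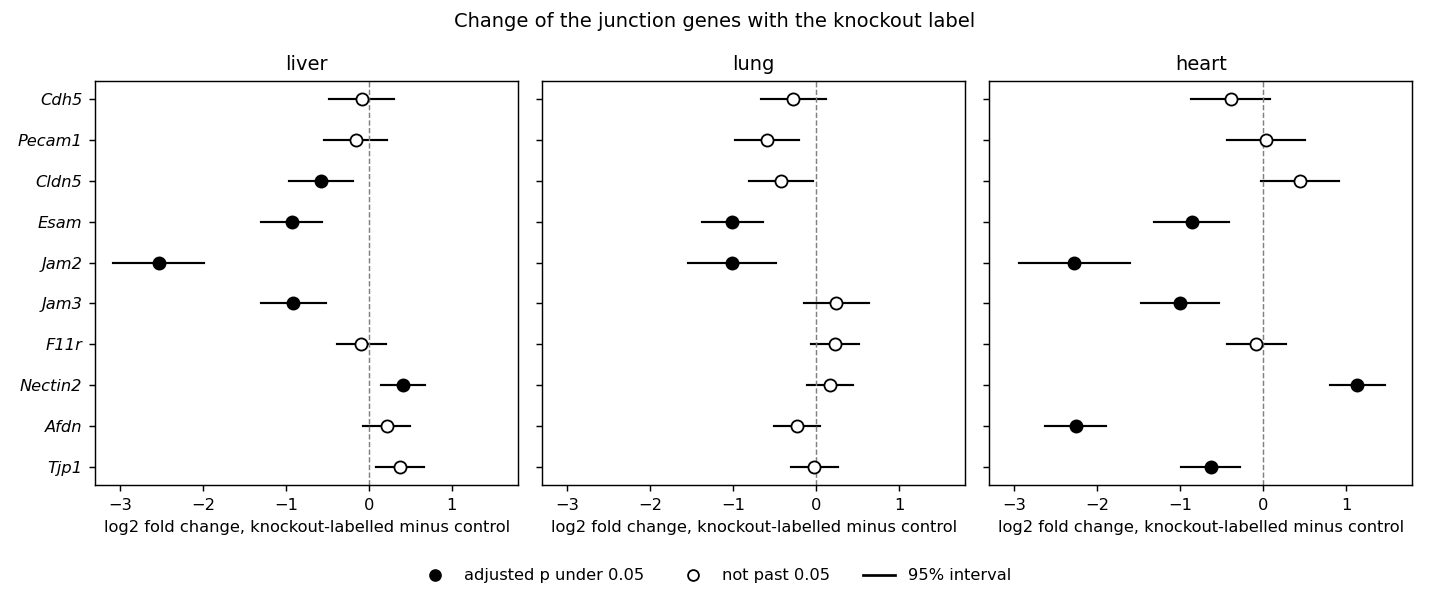
Log2 fold change of each junction gene (knockout-labelled minus control) in liver, lung and heart, with 95% intervals; filled points passed an adjusted p of 0.05 and open points did not. Jam2 and Esam are filled below 0 in all 3 panels, Afdn only in heart, and Nectin2 is filled above 0 in liver and heart.

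In liver, 5 of the 10 members passed, 1 higher and 4 lower, where 19.4% of all genes tested passed, 9.54% higher and 9.87% lower. In lung 2 members passed, both lower, against 8.46% of all genes, 4.35% higher and 4.11% lower. In heart 6 passed, 1 higher and 5 lower, against 19.3% of all genes, 10.2% higher and 9.09% lower. With library totals as the only scaling, the liver count became 2 higher and 3 lower, the lung count 3 lower, and the heart count was again 1 and 5. That scaling also moved the share of higher among all calls from 49.2% to 63.8% in liver and from 52.9% to 64.2% in heart. The liver count was 3 without liver control 1, 2 or 3 or knockout-labelled 1 or 2, and the heart count was 3 without heart knockout-labelled 1. The lung count was 1 when lung control 1 or 3, or lung knockout-labelled 2 or 3, was left out. Libraries of the groups did not overlap for 7 members in liver, 3 in lung and 8 in heart, where 37.0%, 29.4% and 59.0% of all genes did not. The median log2 change of the members was −0.13, −0.25 and −0.51 in liver, lung and heart, against 0.02, −0.02 and 0.01 over all genes tested, and 3 members were above 0 and 7 below 0 in each tissue.

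Of the differences between tissues in the knockout change, 2 members passed for lung against liver (6.20% of all genes), Jam2 and Jam3. For heart against liver 4 passed (8.32% of all genes), Afdn and Tjp1 lower and Nectin2 and Cldn5 higher in heart. With a block on the number in the library descriptions 2 passed, and Nectin2 (adjusted p = 0.0586) and Cldn5 (adjusted p = 0.0668) did not. Cldn5 also did not pass with genotype added to that block (adjusted p = 0.0742). For heart against lung 3 passed (6.40% of all genes), Afdn and Jam3 lower and Nectin2 higher. With DESeq2 6 passed there, with Jam2 and Tjp1 also lower (adjusted p = 0.0204 and 0.0302) and Cldn5 also higher (adjusted p = 0.0178). In the reported fit the heart-lung difference of Cldn5 was 0.87 on the log2 scale (adjusted p = 0.0884). For Cldn5 the heart-liver difference was 1.03 on the log2 scale (SE 0.283, adjusted p = 0.0393). It was lost without any 1 of 10 libraries, namely liver control 1, 2 or 3, liver knockout-labelled 1 or 2, lung control 2 or any heart library (adjusted p up to 0.122).

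Markers of other cell types also moved with the knockout label, and their part in the changes of the members was not tested. Summed levels can rest on a few abundant genes, so the number of each list's tested genes that passed is given beside its sum. All of the 14 epithelial markers had counts in lung, where they summed to 2081 to 3314 CPM in controls and 401 to 629 CPM in knockout-labelled libraries, and in heart, where they summed to 6.56 to 9.78 against 124 to 170.1 CPM. Of these, 6 fell in lung and 9 rose in heart. The 16 leukocyte markers summed to 525 to 587 CPM in lung controls and 130 to 276 CPM in knockout-labelled lung libraries. There, 1 of the 15 tested passed, Lyz2, which fell from 472 to 99.99 CPM, and the median log2 change was −0.16. Which cells carried the Lyz2 reads was not tested. In heart the leukocyte markers summed to 33.8 to 72.9 against 244.5 to 390.0 CPM, with Cd3e at 0 in the controls, and 7 of 15 rose. The 10 platelet markers had counts in every group, and their sum went from 234 to 325 CPM in controls to 627 to 694 CPM in liver, from 72.4 to 75.6 to between 120 and 186 CPM in lung, and from 27.6 to 29.9 to between 85.8 and 89.1 CPM in heart. Pf4, Itga2b and Clec1b rose in each tissue, Gp1bb rose in liver and Gp9 in lung, Tubb1 fell in heart, and the median log2 change was 0.85, 1.01 and −0.01 in liver, lung and heart. The 14 mural, fibroblast and stellate markers, all with counts, went in liver from 191 to 230.4 CPM up to 432 to 1005 CPM, with 2 higher, 1 lower and 11 that did not pass. The same mural, fibroblast and stellate markers spanned 389 to 580.1 CPM in lung controls and 506 to 869 CPM in the others, and 1552 to 1778 against 1684 to 2102 CPM in heart, with 1 higher in each. The 10 cardiomyocyte markers summed to 205 to 319 CPM in heart controls and 145 to 173 CPM in the knockout-labelled heart libraries, and 5 fell. The 10 hepatocyte markers in liver summed to 803 to 2777 CPM in controls and 619 to 967 CPM in the others, and 2 fell. The 7 lymphatic endothelial markers, with Ccl21a at 0 in every group, summed in liver to 3850 to 4400 CPM against 1323 to 2323 CPM. Flt4 and Lyve1 fell, the other 4 tested did not pass, and the median log2 change was 0.97, the opposite sign to the sum. The same list summed to 1165 to 1700 CPM in lung controls and 276 to 299 CPM in heart controls. Whether it marked lymphatic cells or other endothelial cells in liver was not tested. The 7 erythroid markers summed in lung to 30.6 to 41.6 CPM against 73.7 to 456 CPM, and none of the 6 tested passed.

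Among the controls, the members divided by tissue. Which libraries had the unstranded or the stranded kit is not given. Whether kit went with tissue is therefore not known, and its part in the differences between tissues was not tested. In lung against liver, 8 of 10 passed (47.0% of all genes): Cldn5 was 3.74-fold, Afdn 3.13-fold, Tjp1 1.8-fold, Pecam1 1.78-fold and Cdh5 1.77-fold higher in lung, and Nectin2 12.7-fold, Jam2 3.48-fold and Jam3 1.55-fold lower. In heart against liver, 4 passed (47.6% of all genes): Afdn was 9.82-fold and Jam3 4.84-fold higher in heart, and Nectin2 7.7-fold and Cldn5 2.14-fold lower. With library totals only in place of TMM scaling, 7 passed in heart against liver, with Cdh5, Pecam1 and Tjp1 also higher in heart. With DESeq2, 5 passed in heart against liver, these 4 among them, and the added member was not recorded by name. In heart against lung, 6 passed (29.5% of all genes): Jam3 was 7.53-fold, Jam2 4.55-fold, Afdn 3.14-fold and Nectin2 1.65-fold higher in heart, and Cldn5 8-fold and Tjp1 1.47-fold lower.

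The order of control levels was therefore lung, then liver, then heart for Cldn5, with each neighbour past the test. For Afdn it was heart, then lung, then liver, for Nectin2 liver, then heart, then lung, and for Jam3 heart, then liver, then lung, again with each step past the test. The Jam3 step between liver and lung was lost without lung control 3 (adjusted p = 0.0574). For Jam2, heart and liver (log2 0.39, 95% interval −0.19 to 0.96) were not separated in the reported fit, and both stood above lung. For Tjp1, lung stood above heart and liver. Heart and liver were not separated in the reported fit (log2 0.30, −0.02 to 0.62) and were with library totals only. The heart-lung step of Tjp1 was lost without heart control 1 (log2 −0.49). For Cdh5 and Pecam1, heart lay between lung and liver and was separated from neither in the reported fit, while lung stood above liver. With library totals only, heart was separated from liver for both genes. Esam, at 901 ± 73.4 (SD, n = 3), 831 ± 15.7 (n = 3) and 907 ± 53.8 CPM (n = 2) in liver, lung and heart, and F11r, at 304 ± 27.5, 247 ± 23.8 and 308 ± 15.2 CPM, passed in no pair of control tissues.

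In the knockout-labelled libraries, 6 members passed in lung against liver (40.6% of all genes), 5 in heart against liver (37.3%) and 5 in heart against lung (31.1%). Nectin2 was 15.1-fold lower in lung and 4.67-fold lower in heart than in liver, and Cldn5 was 4.17-fold higher in lung than in liver. Jam2 levels of 132 ± 52.1 (SD, n = 3), 109 ± 26.6 (n = 3) and 206 ± 27.4 CPM (n = 2) in liver, lung and heart overlapped between liver and lung (log2 −0.28, adjusted p = 0.397). Heart lay above liver without passing (log2 0.65, adjusted p = 0.0733). That difference passed with DESeq2 (adjusted p = 0.0431), library totals only (adjusted p = 0.0346) and a block on the title number (adjusted p = 0.0494) or description number (adjusted p = 0.036). Heart stood above lung (adjusted p = 0.0179). That last step was lost without lung knockout-labelled 2 or 3 or heart knockout-labelled 2 (adjusted p up to 0.107). For Afdn, the knockout-labelled heart libraries stood below those of lung without passing (log2 −0.38, adjusted p = 0.0655) and above those of liver (1.77-fold, adjusted p = 5.55e-04). For Cldn5, heart and liver differed by log2 −0.07 (95% interval −0.50 to 0.36). Tjp1 was 1.64-fold lower in heart than in liver (adjusted p = 0.00241) and 2.24-fold lower than in lung (adjusted p = 9.07e-05).

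Levels of different genes were set side by side per kilobase of exon (CPM per kilobase of the union of annotated exons). On that scale Cldn5 had the highest level of the 10 in lung controls, 2145 ± 412 CPM per kilobase (SD, n = 3), and in liver controls, 574 ± 31.9 (n = 3), and Cdh5 had the highest in heart controls, 648 ± 31.6 (n = 2). In liver controls Cdh5 followed Cldn5 at 471 ± 47.7 CPM per kilobase, Esam was next at 314 ± 25.6 and Pecam1 at 233.5 ± 19.8. Jam3 was lowest in liver controls at 3.38 ± 0.289 CPM per kilobase and in lung controls at 2.17 ± 0.304, and Nectin2 was lowest in heart controls at 7.02 ± 0.475. Jam2 ranked 5 among the members in liver and heart controls, and in the knockout-labelled libraries it ranked 8 in liver and 7 in heart. In heart, Afdn had 109 ± 8.34 CPM per kilobase in controls and 22.8 ± 2.12 in knockout-labelled libraries, the latter below Jam2 at 34.1 ± 4.53.

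**Figure D3:**
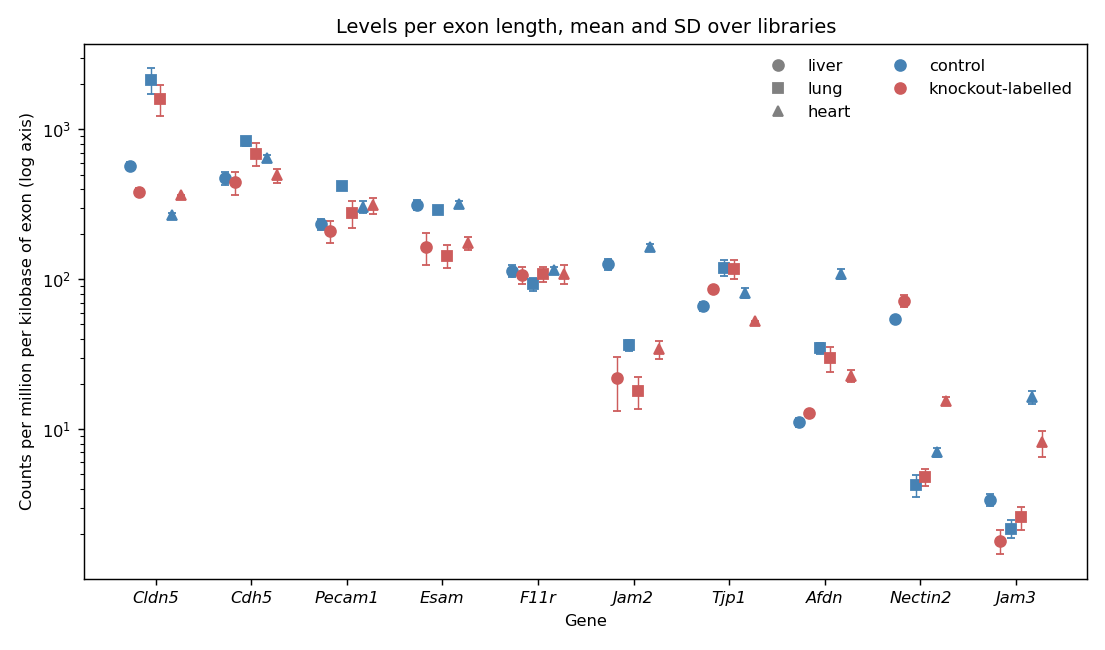
Level of each junction gene per kilobase of exon (log axis) in the 6 groups; symbols are group means, whiskers are 1 SD, marker shape is the tissue and colour the genotype label. Cldn5 in lung is the highest, at 2145 CPM per kilobase in controls, and Jam3 in liver and lung is among the lowest.

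Further junction genes were read from 5 lists, whose counts stand beside the 19.4%, 8.46% and 19.3% of all genes that passed in liver, lung and heart. Calls on genes of these lists come from the reported fit only. Unlike those of the members, they were not followed through the alternative fits or with single libraries left out. Of 11 catenins and other cadherins, 2 fell in liver, 1 rose in lung, and 3 rose and 2 fell in heart. Ctnnb1, which encodes the β-catenin bound to VE-cadherin, fell in liver (692.5 to 474 CPM, log2 −0.55, adjusted p = 0.0244) and heart (1084 to 600 CPM, log2 −0.85, adjusted p = 0.0074), and Jup, encoding plakoglobin, fell in liver (244 to 131.5 CPM, adjusted p = 0.00466). Cdh13, a cadherin held by a lipid anchor, rose in lung (17.7 to 53.1 CPM, adjusted p = 0.00157) and heart (288 to 877 CPM, adjusted p = 0.00262). Cdh1, the cadherin of epithelium, rose in heart from 0.0435 to 5.41 CPM (adjusted p = 1.57e-04), where it was also among the epithelial markers whose sum was higher, and Pkp4 fell there (400.5 to 219 CPM, adjusted p = 0.0341). The median log2 change of the catenin and cadherin list was −0.13, −0.24 and −0.14 in liver, lung and heart.

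The claudin list had 13 genes tested, with 1 higher and 2 lower in liver, 2 lower in lung and 4 higher in heart. Marveld1 fell in liver (155 to 79.2 CPM, adjusted p = 7.52e-04) and lung (348 to 202 CPM, adjusted p = 0.00768) and rose in heart (79.0 to 132 CPM, adjusted p = 0.0174). Whether its product lies at tight junctions in these cells was not tested. Cldn18, a claudin of lung epithelium that was also among the epithelial markers, fell in lung (31.6 to 7.99 CPM, adjusted p = 0.00154). Cldn15 rose in heart from 24.4 to 76.8 CPM (adjusted p = 0.0447), and Marveld2 rose in liver from 3.5 to 9.26 CPM (adjusted p = 0.0185). The median log2 change of the claudin list was 0.89, −0.56 and 0.74 in liver, lung and heart. It was 0.90, −0.61 and 0.74 without the 1 gene per tissue that had no count in a group.

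Of 19 scaffold and polarity genes, 3 rose and 4 fell in liver, 4 fell in lung, and 2 rose and 2 fell in heart, with median log2 changes of −0.19, −0.06 and −0.02. Pard6g, a polarity protein gene, rose in liver from 6.85 to 27.9 CPM (log2 2.03, adjusted p = 1.24e-05), and Mpdz, a scaffold with many PDZ domains, fell there from 80.05 to 39.1 CPM (adjusted p = 3.85e-04). Amot, an angiomotin gene, fell in liver (78.3 to 44.8 CPM, adjusted p = 0.00461), lung (24.6 to 14.8 CPM, adjusted p = 0.0183) and heart (26.4 to 14.7 CPM, adjusted p = 0.014). Its relative Amotl2 fell in lung (387 to 245 CPM, adjusted p = 0.0468) and heart (379 to 166 CPM, adjusted p = 0.00352), and Amotl1 in liver (621 to 365 CPM, adjusted p = 0.00406). Ybx3, whose product binds ZO-1, rose in heart from 152 to 259 CPM (adjusted p = 0.0071).

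The 16 other immunoglobulin-type and related adhesion genes had 3 rises and 2 falls in each tissue, with median log2 changes of −0.01, −0.21 and 0.11 in liver, lung and heart (0.10 in heart without the 1 gene that had no count in a group). Pvr, a nectin-like receptor gene, rose in liver from 70.6 to 254 CPM (log2 1.85, adjusted p = 5e-04) and in heart from 85.03 to 320.5 CPM (log2 1.91, adjusted p = 0.00229). Cd47 fell in liver (768 to 416 CPM, adjusted p = 0.00253) and rose in lung (433 to 667 CPM, adjusted p = 0.0394). L1cam fell in lung (9.26 to 5.21 CPM, adjusted p = 0.0126) and heart (30.9 to 8.89 CPM, adjusted p = 1.94e-04), Cxadr fell in lung (9.31 to 3.54 CPM, adjusted p = 0.0205), and Nectin1 rose in heart (5.4 to 10.3 CPM, adjusted p = 0.00285).

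Among 28 regulators of endothelial junctions, 4 rose and 6 fell in liver, 4 fell in lung, and 3 rose and 6 fell in heart, with median log2 changes of −0.06, −0.11 and 0.03. Rapgef1, an activator of the small GTPase Rap1, which strengthens junctions, fell in liver (260.5 to 156 CPM, adjusted p = 0.0022), lung (191 to 123 CPM, adjusted p = 0.0123) and heart (826 to 329 CPM, adjusted p = 2.57e-04). Rasip1, a Rap1 effector, fell in lung (419 to 179 CPM, adjusted p = 4.66e-04) and heart (367 to 141 CPM, adjusted p = 4.13e-04), and its partner Arhgap29 in heart (481 to 220.3 CPM, adjusted p = 6.26e-04). Robo4, a receptor gene that was also among the endothelial markers, fell in lung (482 to 229 CPM, adjusted p = 0.0188) and heart (757 to 149 CPM, adjusted p = 3.67e-04). In liver S1pr1, the receptor for sphingosine-1-phosphate that stabilises junctions, rose from 186 to 470 CPM (log2 1.34, adjusted p = 3.16e-04). Heg1, a receptor that holds the CCM complex at junctions, rose there from 352 to 812 CPM (log2 1.21, adjusted p = 1.55e-04), while Yes1, a kinase that phosphorylates junction proteins, fell from 133 to 78.2 CPM (adjusted p = 7.29e-04).

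**Figure D4:**
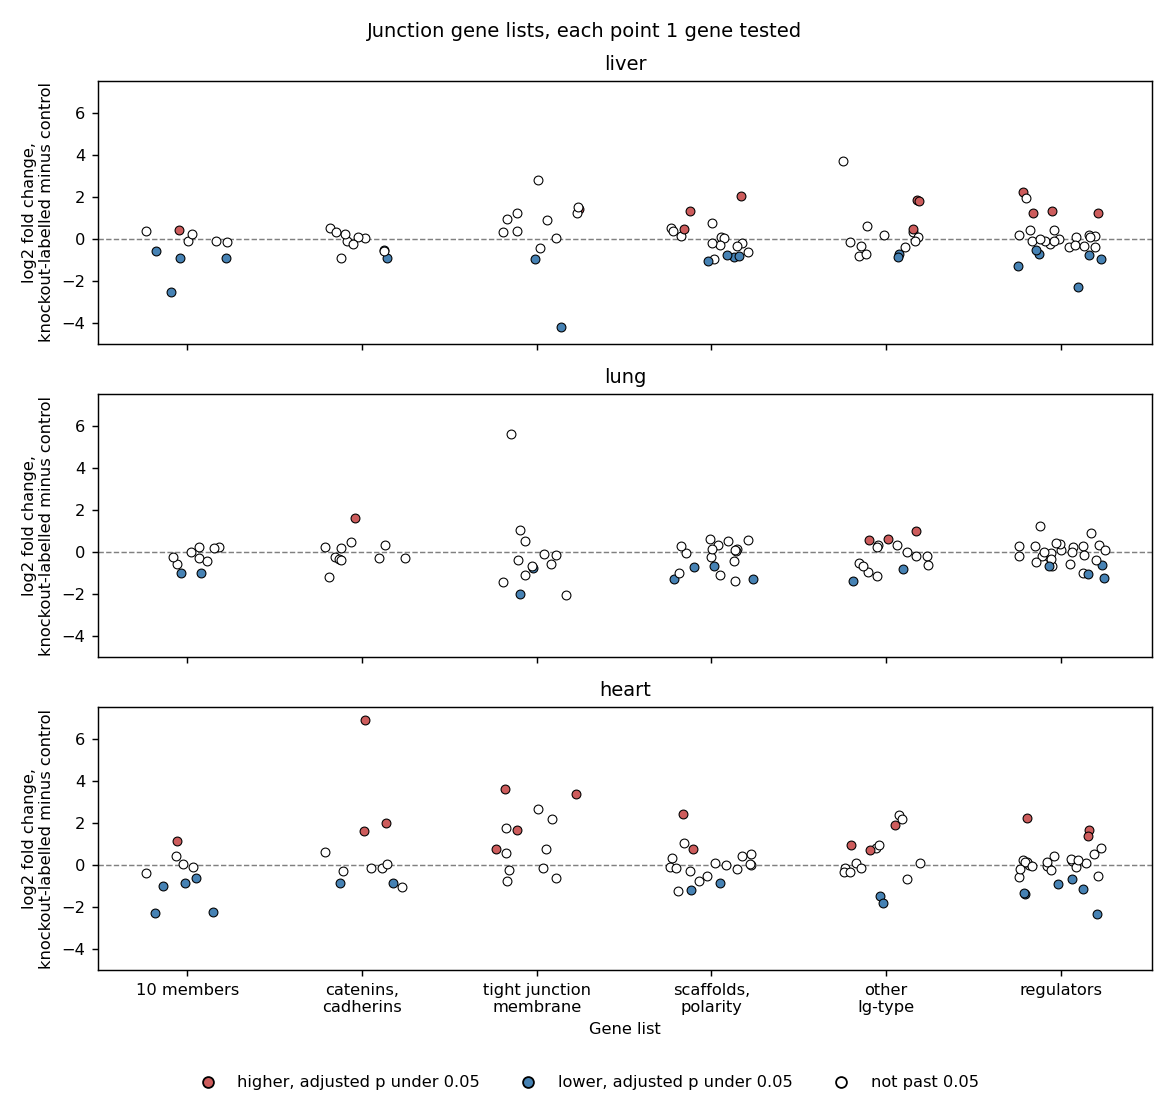
Log2 fold change (knockout-labelled minus control) of each tested gene of the 10 members and the 5 further junction lists, in liver, lung and heart; horizontal scatter within a list carries no meaning. Filled points passed an adjusted p of 0.05, red above 0 and blue below, and open points did not. Regulators show 4 rises and 6 falls in liver and no rise in lung.

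The genes most like each changed member were found by the root mean square difference between log2 CPM means over the 6 groups, each gene centred on its own mean, among 9228 genes of at least 10 CPM on average. Esam, whose group means spanned 1.15 on the log2 scale, lay nearest to Zfp395 (0.0972) and Cenpj (0.125), and Zfp395 had knockout changes of −0.97, −0.79 and −0.72 in liver, lung and heart. Afdn, spanning 3.30, lay nearest to Neurl1b (0.203) and Id1 (0.324), and Neurl1b had 0.35, −0.66 and −2.02. Jam2 had no gene so near, with Pik3c2b at 0.385 and Tcim at 0.409. Cldn5 was nearest to Bmpr2 (0.202) and Rnf141 (0.204), Tjp1 to Nbea (0.138) and Thra (0.15), Nectin2 to Arhgdib (0.219) and Man1a (0.244), and Jam3 to Ldlrad3 (0.291) and Zfp827 (0.3). Likeness over 6 group means is a description of these libraries.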

How the data were processed

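The 10 members and the gene lists were chosen with earlier results of these data known. Values are raw read counts per gene as deposited by the authors. The submitters' processing notes name FastQC 0.11.5, STAR 2.7.6a and the build GRCm38. The sources used here do not give the counting program, its strand setting or its annotation. Poly(A) libraries were made with an unstranded or a stranded TruSeq kit, per the labels' protocols, which do not say which library had which.

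Genes were kept by filterByExpr (minimum count 10, minimum total 15), leaving 19646 of 52636. All 16 libraries entered 1 edgeR 4.0.16 quasi-likelihood fit (R 4.3.3) with TMM factors of 0.916 to 1.07 and 6 group means, 12 contrasts and Benjamini-Hochberg adjustment within each at 0.05. Each SE is the log2 change over the root of F. No replicate block was used. No libraries of a group agreed within sampling noise. Exon lengths and loci came from GENCODE M21 (GRCm38). The code was tested on simulated data. Alternatives were DESeq2 1.42.0, other scaling, no filter, separate fits, replicate blocks and each library left out. For single genes, their results were recorded for the 10 members only.

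All 10 members were named, the 2 genes most like each changed member, and up to 4 genes per list and tissue with the smallest adjusted p past 0.05.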

Additional observations from a re-analysis of the deposited data

Results flagged for a closer look

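The change with the knockout label differed between tissues for 6 members, each by a test of the difference itself in edgeR. In lung against liver, the difference on the log2 scale was 1.52 for Jam2 (adjusted p = 0.018) and 1.15 for Jam3 (adjusted p = 0.0167). In heart against liver it was −2.47 for Afdn (adjusted p = 2.86e-05), −1.01 for Tjp1 (adjusted p = 0.0109), 1.03 for Cldn5 (adjusted p = 0.0393) and 0.72 for Nectin2 (adjusted p = 0.0368). In heart against lung it was −2.03 for Afdn (adjusted p = 2.54e-04), −1.25 for Jam3 (adjusted p = 0.0204) and 0.97 for Nectin2 (adjusted p = 0.0125). Of these 9 differences, those of Afdn, of Jam2 and of Tjp1 stayed past 0.05 without any 1 library.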

How the results depend on the processing

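Of the 12 counts of members and 12 counts of genes, all but 7 stayed within 1.5 times the reported count in every alternative that kept all libraries. With DESeq2, 2514 genes passed in lung (1663 reported), 2072 for the lung-liver difference (1219), 2673 for heart-liver (1635) and 2154 for heart-lung (1257), the last with 6 members (3). With library totals only, 7 members passed in control heart against liver (4), and the median of all genes moved by 0.11 in the liver knockout comparison and in control lung against liver. Under that scaling the share of higher calls among all genes went from 50.4% to 40.5% for lung-liver and from 59.8% to 68.2% for heart-lung. A replicate block on the description number left 2 members for the heart-liver difference (4), with Cldn5 (adjusted p = 0.0668) and Nectin2 (adjusted p = 0.0586) lost, and 3 with genotype added (Cldn5 lost, adjusted p = 0.0742), a fit chosen after seeing the data. A block on the title number left 5, 2 and 6 members in liver, lung and heart. Same-numbered control and knockout-labelled libraries correlated at −0.08 to 0.24, so the number was not taken to pair them. Across tissues of 1 genotype, same-numbered libraries correlated at 0.05 to 0.15 and others at −0.15 to 0.07. In all 14 such pairs each library correlated best with its own number, and the library with little Xist was number 2 in every group that had 1, a hint from the data, not from the design. The 14 matches are not independent. The correlations used departures from group means, which mirror each other in a heart group of 2 libraries.

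Signs that turned belonged to changes that did not pass. With library totals only, Cdh5 had 0.0204 and F11r 0.0210 in liver, Tjp1 0.0086 in lung and F11r 0.0053 in heart. Tjp1 in lung had 0.0050 without the filter and 0.0134 in a separate fit, and the heart-liver difference of Esam was −0.0340 with the genotype and number block. Without 1 library, the range was −0.24 to 0.009 for Cdh5, −0.17 to 0.0116 for F11r in liver, −0.13 to 0.0793 for Tjp1 in lung, −0.10 to 0.16 for Pecam1 and −0.24 to 0.0595 for F11r in heart, and −0.22 to 0.12 (lung-liver) and −0.0753 to 0.27 (heart-liver) for Esam.

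Leaving out 1 library gave 3 to 6, 1 to 3 and 3 to 6 members called in liver, lung and heart, and 1 to 2, 2 to 4 and 1 to 4 for the lung-liver, heart-liver and heart-lung differences. It gave 910 to 2084 genes in lung, 1849 to 4246 in heart, and 804 to 1269, 736 to 1779 and 476 to 1669 for those differences. Control heart against lung had 3536 to 6227, and knockout-labelled heart 4843 to 7459 against liver and 3571 to 6544 against lung. Where heart kept 1 library in a group, that library was assumed to vary like the others. The cause of these shifts was not tested.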
